A study of Mus musculus with 18 samples.

Results

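The 10 genes described here handle fatty acids or answer to them. They comprise the acyl-CoA synthetase Acsbg1, the desaturases Fads1, Fads2, Scd1 and Scd2, the elongases Elovl5 and Elovl6, and the fatty acid receptors Ppara, Ppard and Pparg. They were taken by symbol from a list that was drawn up with earlier results of these data known, and all 10 were present among the 30172 genes of each library.

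The RNA came from whole ovaries of wild-type female C57BL/6J pups of the F1 generation. In the F1-HHcy group the dams ate a diet with 3% methionine by weight, a model of hyperhomocysteinemia, from 4 weeks before mating until the end of lactation, according to the labels. The study's methods give a different starting point for the diet. In the F1-Control group the dams ate normal chow, and no pup of either group was treated directly. Each diet was represented by 3 libraries at each age, 18 libraries in 6 groups, and the ages are written Pd3, Pd7 and Pd21 for the day after birth. Neither the number of pups nor the number of litters behind a library was given, so the p-values measure the spread between these libraries, which may be partly technical. All libraries of the younger ages carry the label of batch 1 and all Pd21 libraries that of batch 2, and age and batch cannot be told apart between Pd7 and Pd21.

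Between 33630547 and 39399215 fragments per library fell on genes. Markers of granulosa cells and oocytes were present in all 6 groups, for example Foxl2 at 45.7 to 195 FPKM, as the tissue label requires. A level is given in FPKM, a fragment count corrected for the length of the gene and the depth of the library. The files do not name this unit, and it was read from the values. Levels of different genes are compared on this scale only. A difference between groups is given as a log2 fold change of FPKM + 1 with its standard error (SE), a scale that understates differences of genes near or below 1 FPKM. A gene was called changed when its limma p-value, adjusted by the Benjamini-Hochberg method over all genes tested, was under 0.05.

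A fatty acid must be joined to coenzyme A before it can be elongated, desaturated, burned or built into a membrane lipid, and Acsbg1 is one of the enzymes that makes this bond for long-chain fatty acids. Fads2 and Fads1 introduce double bonds near the carboxyl end in the making of polyunsaturated fatty acids, and Scd1 and Scd2 make monounsaturated fatty acids from saturated ones. Elovl5 lengthens mainly polyunsaturated chains and Elovl6 mainly saturated and monounsaturated ones. The PPARs are nuclear receptors that bind fatty acids, pair with a retinoid X receptor and regulate genes of lipid use and storage. In the ovary, lipid metabolism supplies membranes, energy for the growing oocyte and cholesterol for steroid hormone synthesis.

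The members lie on 6 chromosomes of the GRCm38 (mm10) mouse assembly. Acsbg1 (chr9:54604877-54661870, minus strand) and Elovl5 (chr9:77917364-77984519, plus strand) share chromosome 9. The desaturases form pairs on chromosome 19. Fads2 (chr19:10062765-10101746, minus strand) and Fads1 (chr19:10182888-10196877, plus strand) are 81141 bases apart, and Scd2 (chr19:44293674-44306864, plus strand) and Scd1 (chr19:44394455-44407879, minus strand) are 87590 bases apart. Elovl6 lies at chr3:129532355-129638495, Ppara at chr15:85734983-85802819, Ppard at chr17:28232700-28301474 and Pparg at chr6:115360951-115490399, all on the plus strand. Of the 50-base windows of the transcripts, 4.56% of those of Scd1 and 3.75% of those of Scd2 also occurred in a related Scd gene, and the values of this pair are therefore less certain than those of the others, for which the share was at most 0.15%.

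The 250 bases before the start site are shown for Acsbg1, Fads2 and Elovl6, which stand for the activating, desaturating and elongating enzymes whose level was higher in the F1-HHcy group at Pd7. The start sites are those of RefSeq on GRCm38.p6 and differ from the ends of the gene positions above, which are from GENCODE. By those positions nearly all of the Fads2 window and a small part of the Elovl6 window lie inside the gene. The sequences, also from RefSeq, were matched to 7 of the 10 members by symbol, and Fads1, Scd1 and Scd2 had no entry. They read 5′ to 3′ on the strand of the gene, at chr9:54661886-54662135, chr19:10101504-10101753 and chr3:129532136-129532385 respectively. Capitals mark matches on either strand to the 5 motifs searched, which were the NF-Y box CCAAT, the GC box GGGCGG, the SF-1 site CAAGGNCA, the sterol response element TCACNCCAC and a direct repeat of AGGNCA with 1 base between the copies, the form to which PPARs bind.
Acsbg1: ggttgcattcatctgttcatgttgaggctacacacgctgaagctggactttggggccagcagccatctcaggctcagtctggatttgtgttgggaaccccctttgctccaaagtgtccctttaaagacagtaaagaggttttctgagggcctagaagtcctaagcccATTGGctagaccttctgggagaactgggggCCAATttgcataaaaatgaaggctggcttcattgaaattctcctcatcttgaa
Fads2: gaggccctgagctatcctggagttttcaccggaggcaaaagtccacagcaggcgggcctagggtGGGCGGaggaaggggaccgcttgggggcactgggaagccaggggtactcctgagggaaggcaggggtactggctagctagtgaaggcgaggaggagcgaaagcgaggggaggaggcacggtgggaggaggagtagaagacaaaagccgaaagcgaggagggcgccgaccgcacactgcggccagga
Elovl6: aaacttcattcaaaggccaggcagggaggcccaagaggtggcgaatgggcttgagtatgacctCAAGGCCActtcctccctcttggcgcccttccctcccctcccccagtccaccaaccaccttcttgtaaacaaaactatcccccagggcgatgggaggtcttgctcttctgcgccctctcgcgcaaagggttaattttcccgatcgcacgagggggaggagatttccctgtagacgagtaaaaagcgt

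The Acsbg1 promoter held CCAAT at 83 and 53 bases before the RefSeq start site, the Fads2 promoter held a GC box at 186 bases and the Elovl6 promoter an SF-1 site at 187 bases. SF-1 is a nuclear receptor of steroid-producing cells. Of all 32851 promoters of the same length, 33.8% held CCAAT, 32.7% the GC box, 5.53% the SF-1 site, 1.05% the sterol response element and 0.338% the direct repeat. Neither the sterol response element nor the direct repeat was found in the promoters of the 7 matched members, which says only that these letters are not in these windows.

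**Figure D1:**
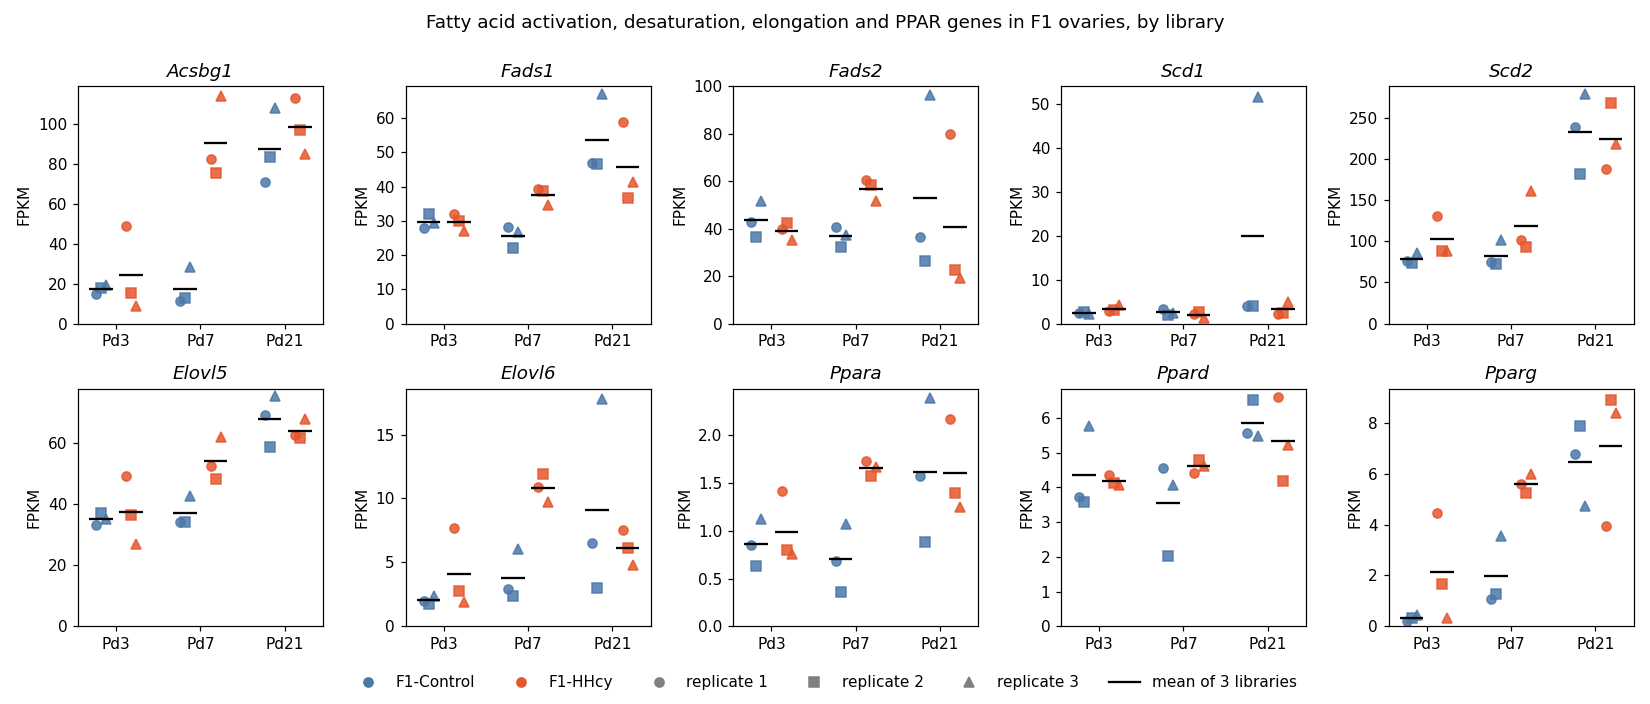
Level of each of the 10 members in FPKM (vertical axes, from 0) in the 18 ovary libraries by postnatal day (horizontal axes). Blue is F1-Control, red is F1-HHcy, the marker shape gives the replicate and the black line the mean of 3 libraries. At Pd7 the red points of 7 members lie above all blue points, and at Pd21 the diets overlap in all 10.

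The diets were compared within each day to ask when the maternal diet goes with a different level of these genes in the ovary of the pup. At Pd7, 6 of the 10 members were higher in the F1-HHcy group and 0 were lower. The 6 were Acsbg1, Elovl6, Pparg, Ppara, Fads2 and Fads1, with log2 fold changes from 2.40 to 0.54. Among all 13299 genes tested at Pd7, 11.9% were called in either direction and 5.88% were called higher. At Pd3, 0 of the 8 members tested were called, beside 3.07% of all genes, and at Pd21 0 of the 10, beside 2.23% of all genes. No member reached an unadjusted p under 0.05 at Pd3 or Pd21, where 2974 and 914 of all genes tested did. With limma-voom on the fragments recovered from the values, 0 members were called at either day. In order of age, the median log2 fold change of the members was 0.09, 0.58 and -0.10, and that of all genes tested was -0.03, -0.0015 and -0.01. In whole ovaries a change in the number of cells of a type and a change in RNA per cell cannot be told apart, and this holds for every result here.

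**Figure D2:**
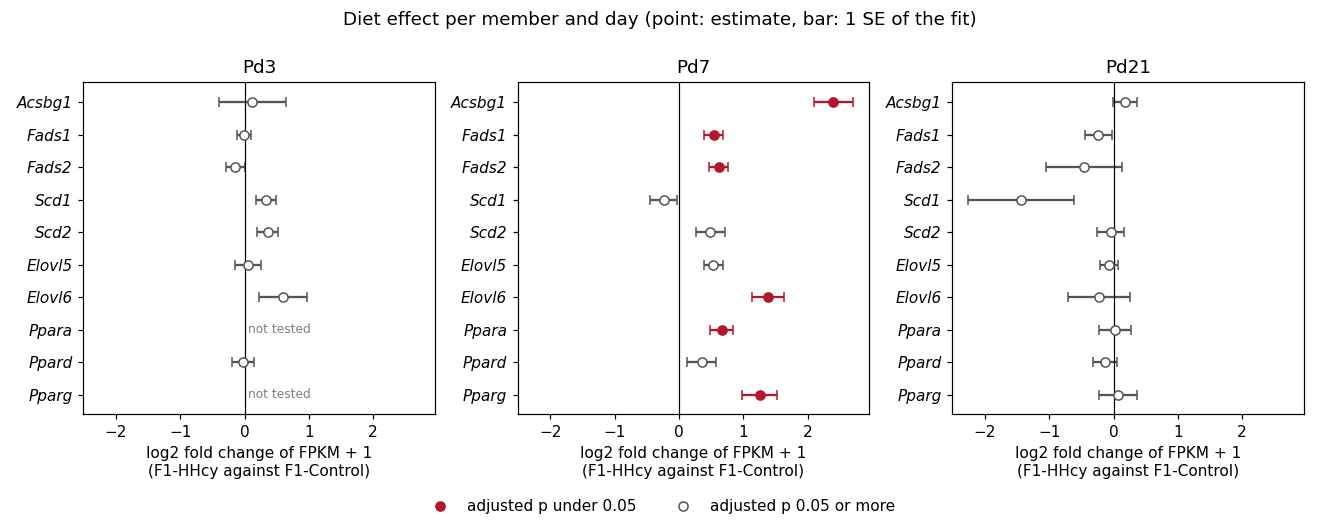
Log2 fold change of FPKM + 1, F1-HHcy against F1-Control (horizontal axes), for the 10 members (rows) at Pd3, Pd7 and Pd21. Points are estimates from 3 against 3 libraries, bars are 1 SE, and filled red points have an adjusted p under 0.05, which 6 members had at Pd7 and none at Pd3 or Pd21; Ppara and Pparg were too low to be tested at Pd3.

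Acsbg1, the activating enzyme, showed the largest diet difference among the 10 members. At Pd7 it measured 11.2, 12.9 and 28.6 FPKM in the F1-Control libraries and 82.8, 75.7 and 114 FPKM in the F1-HHcy libraries. The lowest F1-HHcy library was well above the highest F1-Control library. The means were 17.6 ± 9.58 FPKM and 91.0 ± 20.6 FPKM (SD, n = 3 each), and the log2 fold change was 2.40 (SE 0.30, limma adjusted p = 0.0031). At Pd3 the F1-Control libraries measured 14.9, 17.7 and 19.4 FPKM and the F1-HHcy libraries 48.9, 15.3 and 8.59 FPKM. Here the F1-HHcy libraries lay on both sides of the F1-Control range, with replicate 1 high and replicate 3 low. The log2 fold change at Pd3 was 0.12 (SE 0.52, limma adjusted p = 0.917), and it was -0.55 without F1-HHcy replicate 1.

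At Pd21 Acsbg1 measured 71.2, 83.6 and 108 FPKM in the F1-Control libraries and 113, 97.2 and 85.2 FPKM in the F1-HHcy libraries. The diets overlapped, and every F1-Control library was now far above its group's range at Pd7. The log2 fold change was 0.18 (SE 0.19, limma adjusted p = 1). Ordered by their means, the F1-Control groups at Pd3 and Pd7 and the F1-HHcy group at Pd3 (17.3, 17.6 and 24.2 FPKM) overlapped each other, and lay apart from the F1-Control group at Pd21 and the F1-HHcy groups at Pd7 and Pd21 (87.5, 91.0 and 98.4 FPKM), which also overlapped.

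Fads2 and Fads1, which act in sequence in the making of polyunsaturated fatty acids, were both higher in the F1-HHcy group at Pd7. Fads2 measured 40.9, 32.2 and 37.5 FPKM in the F1-Control libraries and 60.7, 58.5 and 51.5 FPKM in the F1-HHcy libraries. Fads1 measured 28.1, 22.0 and 26.7 FPKM against 39.3, 38.6 and 34.5 FPKM. The diets did not overlap for either gene. The log2 fold change of Fads2 was 0.62 (SE 0.15, limma adjusted p = 0.0265) and that of Fads1 was 0.54 (SE 0.14, limma adjusted p = 0.0404). Fads2 and Acsbg1 belong to the genes the study displayed at Pd7 from these same libraries, and their direction is no independent evidence.

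At Pd3 the diets overlapped for both Fads genes. Fads2 was at 36.4 to 51.6 FPKM in the F1-Control group and at 35.1 to 42.3 FPKM in the F1-HHcy group, and Fads1 was at 27.8 to 31.9 and 26.9 to 32.1 FPKM. At Pd21 Fads2 measured 36.7, 26.3 and 96.3 FPKM in the F1-Control libraries and 79.8, 22.7 and 19.2 FPKM in the F1-HHcy libraries. Fads1 measured 46.8, 46.7 and 67.1 FPKM against 58.7, 36.7 and 41.3 FPKM. In both groups 1 library stood above the other 2 for both genes, F1-Control replicate 3 and F1-HHcy replicate 1. In these 2 libraries Fads2 exceeded Fads1. In the other Pd21 libraries the ratio of Fads2 to Fads1 was 0.465 to 0.784, and at Pd3 and Pd7 it was 1.14 to 1.75 in every library. The log2 fold changes at Pd21 were -0.46 (SE 0.59) for Fads2 and -0.23 (SE 0.22) for Fads1, with a limma adjusted p = 1 for both, and that of Fads2 was 0.08 without F1-Control replicate 3.

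The stearoyl-CoA desaturases were not called on any day. Scd2 was the highest of the 10 members, between 72.2 and 278 FPKM, and Scd1 was at 1.31 to 5.01 FPKM in 17 of the 18 libraries. At Pd7 Scd2 measured 74.4, 72.2 and 101 FPKM in the F1-Control libraries and 101, 93.1 and 161 FPKM in the F1-HHcy libraries (log2 fold change 0.48, SE 0.23, limma adjusted p = 0.173). Scd1 was the only member with a negative log2 fold change at Pd7 (-0.24, SE 0.21, limma adjusted p = 0.469). At Pd3 both were somewhat higher in every F1-HHcy library. Scd1 was at 2.18 to 2.68 FPKM against 2.94 to 4.16 FPKM and Scd2 at 73.3 to 85.9 FPKM against 88.3 to 130 FPKM, with limma adjusted p = 0.249 and 0.256. These were 2 of 8 members tested whose diets did not overlap at Pd3, beside 27.9% of all genes tested. At Pd7 it was 7 of 10 beside 39.0%, and at Pd21 0 of 10 beside 10.5%.

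At Pd21 Scd1 measured 3.98, 4.03 and 51.6 FPKM in the F1-Control libraries and 2.16, 2.49 and 5.01 FPKM in the F1-HHcy libraries. A single library, F1-Control replicate 3, was more than 10 times as high as any other. The log2 fold change of -1.44 (SE 0.82, limma adjusted p = 1) became -0.31 without it. In that library the 7 markers of adipocytes summed to 348 FPKM and all 7 were at 1 FPKM or more, among them Fabp4 at 227 FPKM and Adipoq at 33.2 FPKM. The other F1-Control libraries at Pd21 summed to 58.1 and 107 FPKM and the F1-HHcy libraries to 8.36 to 83.8 FPKM, where Lep was at 0 in 2 of 3 libraries. None of the 6 adipocyte markers tested was called at Pd21, by limma or by limma-voom, and 5 had an unadjusted p under 0.05 by limma. Markers of oviduct and multiciliated epithelium summed to 338, 68.8 and 438 FPKM in the F1-Control libraries at Pd21, with replicate 3 again the highest. In the F1-HHcy libraries they summed to 4.85, 2.68 and 3.11 FPKM, and 5 of the 6 were called lower. The part of either cell type in the Scd1 value, or in any other Pd21 value of the members, was not tested.

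Elovl6, the elongase of saturated and monounsaturated chains, was low at Pd3 and differed between the diets at Pd7. At Pd7 it measured 2.88, 2.38 and 6.01 FPKM in the F1-Control libraries and 10.9, 11.9 and 9.69 FPKM in the F1-HHcy libraries. The diets did not overlap, and the log2 fold change was 1.39 (SE 0.25, limma adjusted p = 0.00959). At Pd3 it measured 1.99, 1.77 and 2.33 FPKM against 7.68, 2.78 and 1.89 FPKM, and again F1-HHcy replicate 1 was the highest (log2 fold change 0.60, SE 0.37, limma adjusted p = 0.381; 0.13 without that library). At Pd21 the F1-Control libraries spread from 2.97 to 17.8 FPKM around the F1-HHcy libraries at 4.76 to 7.56 FPKM.

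Elovl5, the elongase of polyunsaturated chains, was more abundant and had a smaller diet difference. At Pd7 it measured 34.2, 34.1 and 42.8 FPKM in the F1-Control libraries and 52.5, 48.2 and 61.8 FPKM in the F1-HHcy libraries. The diets did not overlap, but its log2 fold change of 0.54 (SE 0.16, limma adjusted p = 0.0517) missed the threshold. At Pd3 the groups were at 33.3 to 37.0 and 26.9 to 49.2 FPKM, and at Pd21 at 58.7 to 75.4 and 61.6 to 67.8 FPKM. The ratio of Elovl5 to Elovl6 was 4.04 to 6.38 in the F1-HHcy libraries at Pd7 and 7.12 to 14.3 in the F1-Control libraries.

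Of the receptors, Pparg, best known as a regulator of fat cell formation, had the widest range of group means, from 0.323 to 7.10 FPKM. At Pd3 it measured 0.21, 0.31 and 0.45 FPKM in the F1-Control libraries and 4.46, 1.66 and 0.33 FPKM in the F1-HHcy libraries, and was not tested because fewer than 3 of these libraries reached 1 FPKM. At Pd7 it measured 1.08, 1.25 and 3.57 FPKM against 5.61, 5.25 and 6.01 FPKM. The F1-HHcy libraries were close together and above all F1-Control libraries, with a log2 fold change of 1.25 (SE 0.27, limma adjusted p = 0.0188). At Pd21 it measured 6.78, 7.91 and 4.73 FPKM against 3.94, 8.93 and 8.42 FPKM, with no separation of the diets (log2 fold change 0.07, SE 0.29, limma adjusted p = 1).

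Ppara, a regulator of fatty acid oxidation, was the lowest of the receptors after Pd3. At Pd7 it measured 0.68, 0.36 and 1.07 FPKM in the F1-Control libraries and 1.73, 1.57 and 1.67 FPKM in the F1-HHcy libraries (log2 fold change 0.66, SE 0.18, limma adjusted p = 0.042). It passed the filter at Pd7 through the F1-HHcy libraries and 1 F1-Control library. At Pd3 it was at 0.63 to 1.12 FPKM in the F1-Control group and 0.75 to 1.42 FPKM in the F1-HHcy group and was not tested, and at Pd21 the groups were at 0.88 to 2.39 and 1.25 to 2.17 FPKM. Ppard, the most broadly expressed PPAR, was not called between the diets on any day. Its group means ran from 3.55 ± 1.34 FPKM (SD, n = 3) in the F1-Control group at Pd7 to 5.87 ± 0.576 FPKM (SD, n = 3) in the F1-Control group at Pd21. Each pair of neighbours in that order overlapped, but these outermost groups lay apart, at 2.03 to 4.55 and 5.49 to 6.53 FPKM. The log2 fold change of Ppard at Pd7 was 0.35 (SE 0.22, limma adjusted p = 0.298).

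The 6 calls at Pd7 differed in how far they depended on single libraries. With each of the 6 Pd7 libraries left out in turn, Acsbg1 and Elovl6 passed the threshold 6 times of 6, Fads2 3 times, Pparg 2 times, Ppara 1 time and Fads1 0 times. The number of members called was then 2 without F1-Control replicate 2 or F1-HHcy replicate 1, 3 without F1-Control replicate 1 or F1-HHcy replicate 2 or 3, and 6 without F1-Control replicate 3, in which Elovl5 took the place of Fads1. Over all genes the number called was 493 to 1845 in these fits, against 1577 with all 6 libraries. With all 18 libraries in 1 model the number of members called was 2, Acsbg1 and Fads1.

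Markers of several cell types differed between the diets at Pd7, among them those of theca and other steroid-producing cells. All 6 of them, Cyp17a1, Cyp11a1, Star, Hsd3b1, Insl3 and Lhcgr, were called higher in the F1-HHcy group, with a median log2 fold change of 2.18. Their summed level was 216, 286 and 449 FPKM in the F1-Control libraries and 1160, 1200 and 1140 FPKM in the F1-HHcy libraries. None of the 6 was at 0 in a Pd7 library, though Insl3 passed the filter through the F1-HHcy libraries alone. Cyp17a1, the enzyme that commits steroids to androgen synthesis, measured 0.84, 0.60 and 9.03 FPKM against 169, 175 and 64.3 FPKM. Replicate 3 was thus the highest F1-Control library in this gene as it was in Acsbg1, Elovl6, Elovl5, Scd2, Ppara and Pparg. In Fads1, Fads2, Scd1 and Ppard replicate 1 was the highest F1-Control library. In the F1-HHcy group replicate 3 was the lowest in Cyp17a1, Elovl6, Fads1, Fads2 and Scd1. It was the highest in Acsbg1, Elovl5, Scd2 and Pparg, and lay between the other libraries in Ppara and Ppard.

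At Pd3 the same markers summed to 98.4 to 152 FPKM in the F1-Control libraries and to 679, 349 and 71.3 FPKM in the F1-HHcy libraries. F1-HHcy replicate 1 had 43.3 FPKM of Cyp17a1 where the other Pd3 libraries had at most 1.06 FPKM. It was also the library with the highest Acsbg1, Elovl5, Elovl6, Ppara, Pparg, Fads1 and Scd2 at that day, but not the highest in Fads2, Scd1 or Ppard. At Pd21 the sums were 583 to 1120 FPKM and 670 to 1770 FPKM, and 0 of the 5 markers tested were called or had an unadjusted p under 0.05, by limma or by limma-voom. Adipocyte markers summed to 5.05 to 17.7 and 16.6 to 26.6 FPKM at Pd7, where 2 of the 4 tested were called higher, Plin1 and Cfd, and Adipoq was not (1.52 FPKM at most). Cfd passed the filter through the F1-HHcy libraries alone. Granulosa cell markers had sums of 186, 218 and 428 FPKM in the F1-Control libraries and 445, 430 and 729 FPKM in the F1-HHcy libraries at Pd7. Replicate 3 was the highest in both groups, as it was in Acsbg1, Elovl5, Scd2 and Pparg. Of the 6 granulosa markers 1 was called higher, Inha (log2 fold change 1.40, limma adjusted p = 0.0497), and limma-voom called 0. Fst and Wnt4 had negative log2 fold changes (-0.20 and -0.05). At Pd3 these markers summed to 141 to 144 FPKM in the F1-Control libraries and to 430, 254 and 200 FPKM in the F1-HHcy libraries, with replicate 1 again the highest. Of the 5 tested at Pd3, limma called 2 higher, Amh and Inha (limma adjusted p = 0.0453 and 0.0338), and limma-voom called 1. At Pd7 3 of 6 oocyte markers, 4 of 5 surface epithelium markers and 5 of 5 tested erythroid markers were called lower in the F1-HHcy group. The part of these cell types in the members' differences was not tested.

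**Figure D3:**
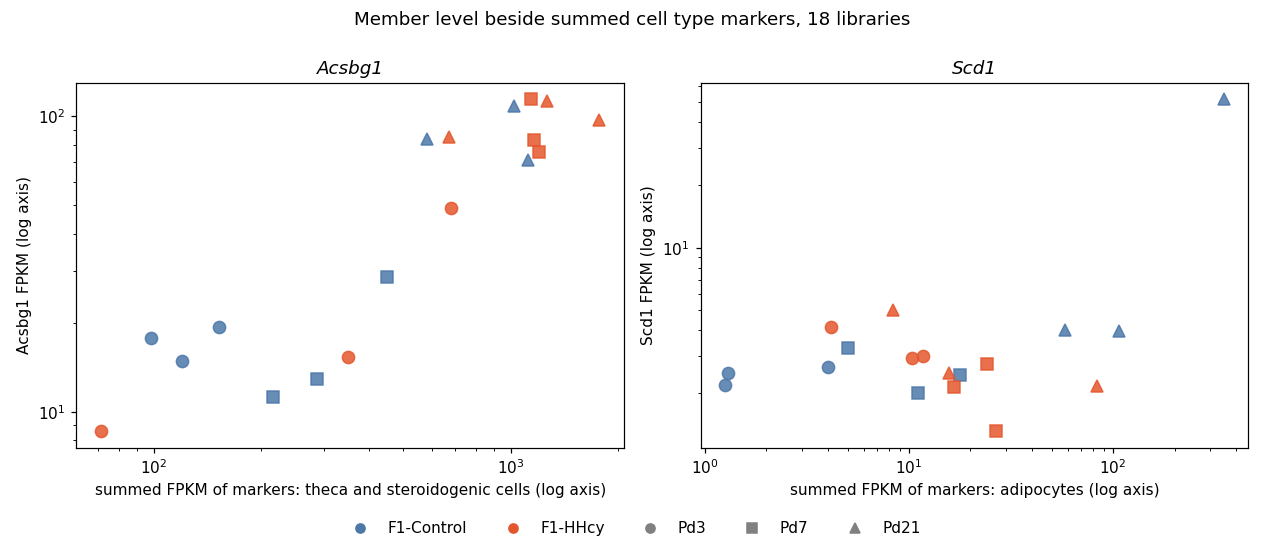
Level of Acsbg1 against the summed level of 6 theca and steroidogenic markers (left) and of Scd1 against that of 7 adipocyte markers (right), in FPKM on log axes, 1 point per library. Color gives the diet and shape the day. The F1-HHcy libraries at Pd7 sit at 1140 to 1200 FPKM of theca markers and 75.7 to 114 FPKM of Acsbg1, and the 1 library at 348 FPKM of adipocyte markers has 51.6 FPKM of Scd1.

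Other genes of the pathway were described from lists of 77 genes, of which 76 were in the files. At Pd7, 6 of the 61 tested were higher and 3 were lower in the F1-HHcy group, and the median log2 fold change was 0.10, against 0.58 for the members. These 9 calls are a share near the 11.9% of all genes called at that day. Slc27a1, a fatty acid transport protein with acyl-CoA synthetase activity, measured 19.6, 13.1 and 20.8 FPKM in the F1-Control libraries and 46.7, 47.9 and 45.8 FPKM in the F1-HHcy libraries (log2 fold change 1.37, SE 0.18, limma adjusted p = 0.00312). Its relative Slc27a2 went the other way, at 6.66, 5.69 and 3.40 FPKM against at most 1.62 FPKM in the F1-HHcy libraries (log2 fold change -1.30, limma adjusted p = 0.00666). They were the 2 called among 12 tested synthetases and transporters, and the general long-chain synthetases Acsl1, Acsl3, Acsl4 and Acsl5 had log2 fold changes of -0.40, 0.05, -0.22 and -0.33, none past the threshold.

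Among 20 tested PPAR target genes, 3 were higher and 1 was lower at Pd7. The higher ones included Pdk4, which restrains glucose oxidation (log2 fold change 0.95, SE 0.17, limma adjusted p = 0.00972), and the apolipoprotein gene Apoc3 (1.37, SE 0.31, limma adjusted p = 0.0221). Pdk4 measured 2.21, 1.51 and 2.44 FPKM in the F1-Control libraries and 5.34, 5.02 and 4.22 FPKM in the F1-HHcy libraries, which did not overlap. The lower one was Fabp3, a fatty acid binding protein (-0.96). Slc27a1 and Apoc3 are also among the genes the study displayed from these libraries. Oxidation genes such as Cpt1a (0.27, limma adjusted p = 0.198) were not called.

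In fatty acid synthesis, 1 of 11 tested genes was higher, the carbohydrate-responsive factor Mlxipl (log2 fold change 1.29, limma adjusted p = 0.00826), and 1 lower, Insig1, which retains the sterol sensor in the endoplasmic reticulum (-0.83, limma adjusted p = 0.0126). Insig1 measured 34.1, 41.8 and 34.0 FPKM against 19.0, 17.5 and 24.3 FPKM. Of the other desaturases Fads6 was higher (0.82, limma adjusted p = 0.0461) and Fads3 was not called (-0.15, limma adjusted p = 0.581). None of the 8 tested genes of the elongation cycle was called, and neither was any of the 8 tested PPAR partners and cofactors, the receptor partner Rxra among them (0.13, limma adjusted p = 0.618).

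At Pd3, 2 of 61 tested pathway genes were called higher in the F1-HHcy group, a share near the 3.07% of all genes called. Rxra measured 7.98, 8.85 and 7.88 FPKM against 11.9, 11.9 and 13.5 FPKM (log2 fold change 0.54, limma adjusted p = 0.0486). Apoc3 was at 0, 0 and 0.08 FPKM in the F1-Control libraries and at 3.37, 1.94 and 1.44 FPKM in the F1-HHcy libraries and passed the filter through the F1-HHcy libraries alone, so that its call only restates these values. At Pd21, 0 of 62 were called by limma or by limma-voom, and 5 had an unadjusted p under 0.05 by limma, as had 914 of all 13350 genes.

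**Figure D4:**
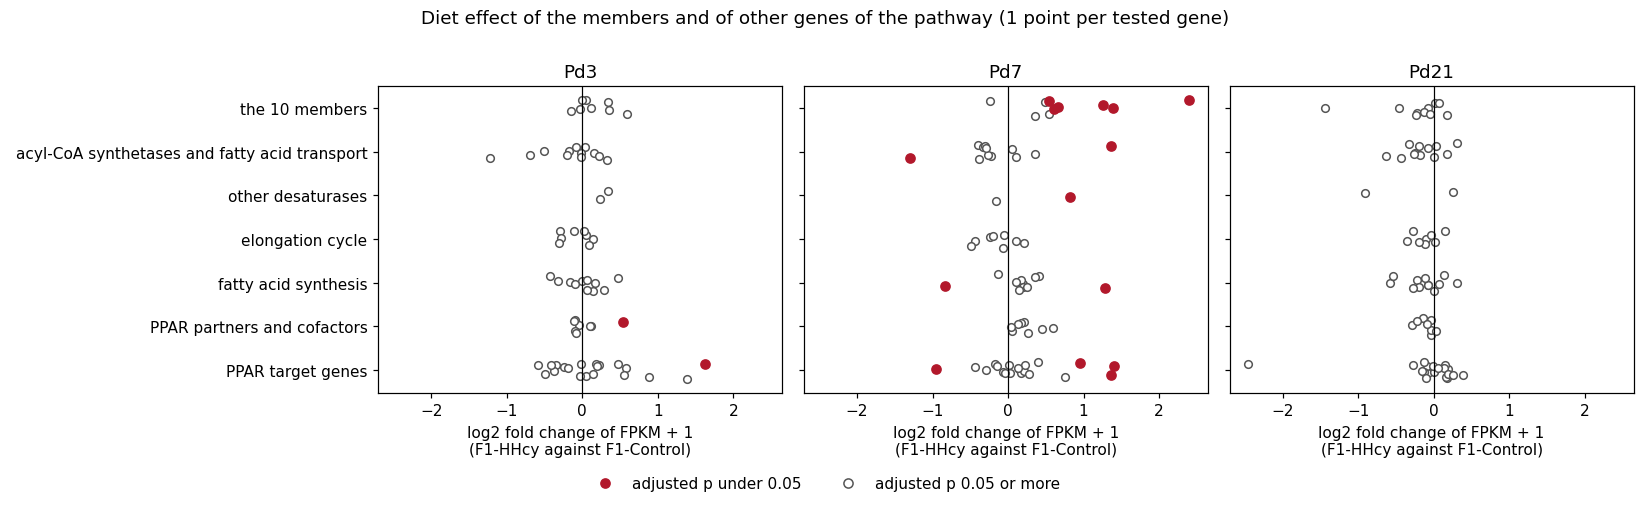
Log2 fold change of FPKM + 1, F1-HHcy against F1-Control (horizontal axes), for each tested gene of the members and of 6 lists of other pathway genes (rows, jittered), at Pd3, Pd7 and Pd21. Filled red points have an adjusted p under 0.05. At Pd7, 6 of 10 members and 9 of 61 other genes are filled; in the elongation cycle and among PPAR partners none is.

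Age was compared between Pd7 and Pd3 within each diet, as both days were in batch 1. In the F1-Control group 1 of 9 members tested was called, beside 14.5% of all genes. This was Pparg, which was higher at Pd7 (log2 fold change 1.07, SE 0.28, limma adjusted p = 0.0346), but it passed the filter through the Pd7 libraries alone, where it was high. The call was lost without any 1 of the Pd3 libraries (limma adjusted p = 0.0798 to 0.116), and without any 1 of the Pd7 libraries Pparg could not be tested. Elovl6 had a log2 fold change of 0.58 (SE 0.26, limma adjusted p = 0.159) and Acsbg1 of -0.09 (SE 0.29, limma adjusted p = 0.861).

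In the F1-HHcy group 0 of the 10 members were called between Pd3 and Pd7, beside 0.0% of all 13257 genes tested. An unadjusted p under 0.05 was reached by 8 members and by 3119 of the 13257 genes. limma-voom called none either. The log2 fold changes were 2.19 (SE 0.54) for Acsbg1, 1.37 (SE 0.37) for Elovl6, 1.30 (SE 0.45) for Pparg and 0.53 (SE 0.12) for Fads2, with limma adjusted p = 0.101, 0.111, 0.156 and 0.0969. Without F1-HHcy Pd3 replicate 1, the highest of its group in theca and in granulosa markers, 4 members were called, Acsbg1, Elovl6, Elovl5 and Pparg. So were 1174 of all 13107 genes tested.

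Whether the diet difference itself changed with age was tested over all 18 libraries. Between Pd3 and Pd7, 0 of 10 members were called, beside 0.411% of 14607 genes. Acsbg1 had the smallest p of the members (difference of log2 fold changes 2.28, SE 0.61, unadjusted p = 0.00157, limma adjusted p = 0.107), followed by Fads1 (0.55, SE 0.24, unadjusted p = 0.035). These were the 2 members with an unadjusted p under 0.05, which 2017 of the 14607 genes also had, and limma-voom called 0 members. Without F1-HHcy Pd3 replicate 1 the difference of Acsbg1 was 2.95 with a limma adjusted p = 0.0118. With all libraries in, no member passed the test of a diet difference that changed between these ages.

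Between Pd7 and Pd21, 1 of 10 members was called, beside 3.89% of 14607 genes. The diet difference of Acsbg1 was smaller at Pd21 by 2.22 on the log2 scale (-2.22, SE 0.61), with a limma adjusted p that rounds to 0.05 and lies just under the threshold. Fads1 came next (-0.77, SE 0.24, limma adjusted p = 0.0842). limma-voom called 0 members here. Insig1 was the only other pathway gene called (0.84, limma adjusted p = 0.0302). With limma-voom, and in some fits with 1 library left out, 0 of the other pathway genes were called.

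For each member the 3 genes with the most similar pattern were taken by Pearson correlation over the 18 libraries, after the mean of each day was subtracted from log2(FPKM + 1). The 18 points share the diet groups and the libraries that stood apart, so the correlations are descriptions. Pparg was closest to Nr5a2 (r = 0.96), a nuclear receptor of granulosa and luteal cells, and then to Apoa4 and Smoc2. Elovl6 was closest to the lipid droplet gene Plin1 (r = 0.95), Oxtr and the steroidogenic enzyme Cyp11a1 (r = 0.95), and Ppara to Galnt7, Pank1 and Cyp17a1 (r = 0.93). Acsbg1 was closest to Slc25a35 (r = 0.96), Gtf2a1 and Dpyd, and Elovl5 also had Gtf2a1 and Dpyd among its 3.

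Fads2 was closest to Dhcr7 (r = 0.93), an enzyme of the last steps of cholesterol synthesis, then Srgap3 and Lzts3, and Fads1 to Ndst2 (r = 0.94), Tmem44 and Slc7a5. Scd2 was closest to Icmt, Nol9 and Naa25, Scd1 to Mme, Klf5 and Ap1s2, and Ppard to Crocc, Mical3 and Myo9b. Among the members themselves, the closest pairs were Elovl6 with Ppara (r = 0.92) and Acsbg1 with Elovl5 (r = 0.91), and Fads1 with Fads2 had r = 0.84. Pparg and Fads2, both higher in the F1-HHcy group at Pd7, had r = -0.11 with each other.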

How the data were processed

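Ovary RNA of 18 libraries was sequenced from poly-A selected, stranded libraries. The submitters' processing notes name FastQC 0.11.9, Trimmomatic 0.39, STAR 2.7.9a, featureCounts 2.0.1, DESeq2 1.36.0 and GRCm38/mm10, without order or annotation. The authors deposited 1 value per gene and library in FPKM. The unit is not named. For 27294 of 27294 genes above 0 in at least 3 libraries, 1 length per gene and 1 factor per library returned whole fragments (100% within 0.05), which gave the depth and the input of limma-voom. Values were analysed as log2(FPKM + 1) with limma 3.58.1 in R 4.3.3 (variance trend) for genes that reached 1 FPKM in 3 or more of the libraries compared, 6 for a day or diet and 18 for differences between days.

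Exact permutation of 3 against 3 libraries cannot go below p = 0.1, so no permutation p is given. Single genes are described by their limma values and by whether groups overlap. The members, the lists of pathway and marker genes and the tests were chosen with earlier results of these data known. Named are all members and, of the pathway lists, genes called on a day, those with the 3 smallest p of a day or the 3 highest means; Cpt1a, the Acsl genes and Fads3 were added after their values were seen. Positions are from GENCODE on GRCm38, and antisense genes overlap Elovl6 and Pparg. Proteins were not analysed here, and 1 gene of the pathway lists is not reported by name.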

Additional observations from a re-analysis of the deposited data

Results flagged for a closer look

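The diet difference of Acsbg1 differed between Pd7 and Pd21 by -2.22 on the log2 scale (SE 0.61), from 2.40 at Pd7 to 0.18 at Pd21, by a test of the difference over all 18 libraries (limma adjusted p = 0.05 after rounding, just under the threshold). It missed the threshold with a pseudocount of 0.1, without the filter, with the replicate block and with limma-voom (limma adjusted p = 0.0571, 0.116, 0.0693 and 0.0785), and with 1 library left out the adjusted p was 0.0155 to 0.143. In the F1-HHcy group the 3 libraries were at 75.7 to 114 FPKM at Pd7 and 85.2 to 113 FPKM at Pd21, and in the F1-Control group at 11.2 to 28.6 FPKM and 71.2 to 108 FPKM. The 6 theca and steroidogenic markers had the same sign, with a median of -2.42, and Insl3 was called (-1.85, limma adjusted p = 0.0336). Insl3 was too low to be tested at Pd3 or Pd21 and passed the filter at Pd7 through the F1-HHcy libraries alone, so its call largely restates those values. The 6 oviduct and multiciliated markers also had this sign, with a median of -2.03, and 4 were called. The part of either list in the Acsbg1 value was not tested. Age and batch cannot be told apart in this difference.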

How the results depend on the processing

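Each diet and day had 3 libraries, and the lowest member, Pparg, had 25 fragments in 1 library. The number of members called at Pd7, 6 with the settings used, was 5 to 7 with an unadjusted p under 0.05 and 1.5-fold as the criterion, a pseudocount of 0.1, median-ratio scaling, mitochondrial and hemoglobin genes left out, and limma-voom, 0 without a filter on low values, 2 with all 18 libraries in 1 model and 2 to 6 with 1 library left out. The number of other pathway genes called at Pd7 was 9, 0 without the filter and 3 to 10 with 1 library left out. At Pd3 it was 2, and became 6 with the unadjusted criterion, 0 without the filter, 5 with all 18 libraries and 0 to 12 with 1 library left out. The 12, of 60 tested, came without F1-HHcy replicate 3, where 2824 of all 13049 genes were called. The unadjusted criterion called 1293 of all 13277 genes at Pd3, and the model of 18 libraries 881 of 14607. At Pd21 it was 0, and became 3 with the unadjusted criterion and 1 with all 18 libraries, which called 686 of 13350 and 498 of 14607 genes. Members called at Pd3 and Pd21 were 0 in every alternative run.

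Between Pd3 and Pd7, members called in the F1-Control group fell from 1 to 0 without the filter, with all 18 libraries and in the fits with 1 library left out (0 to 0), in 3 of which Pparg could not be tested. In the F1-HHcy group they rose from 0 to 3 with the unadjusted criterion and 1 with all 18 libraries, and were 0 to 4 with 1 library left out. The unadjusted criterion called 1471 of all 13257 genes there. For the difference between Pd7 and Pd3 the members called were 1 with the unadjusted criterion, beside 1465 of all 14607 genes, and 0 to 1 with 1 library left out. For the difference between Pd21 and Pd7 they were 4 with the unadjusted criterion, which called 2231 of all 14607 genes. They were 0 with a pseudocount of 0.1, without the filter and with limma-voom. With 1 library left out they were 0 to 3. The 3 (Acsbg1, Fads1 and Fads2) came without F1-HHcy Pd21 replicate 1, where 1170 of all genes were called against 568. The cause was not tested.

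With the replicate number as a block, although the numbers share no animal or litter in the labels, the members called were 0 at Pd3, 7 at Pd7 and 0 at Pd21, other pathway genes at Pd3 were 0, and members in the difference between Pd21 and Pd7 were 0. The deviations of same-numbered libraries of the diets correlated with r from -0.314 to 0.085 over the 3 ages. Of the F1-HHcy libraries only replicates 1 and 3 at Pd7 correlated best with the F1-Control library of their own number.

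Directions turned only for values that were not called. Median-ratio scaling gave log2 fold changes at Pd3 of 0.021 for Fads1 and 0.001 for Ppard. With 1 library left out, the diet difference at Pd3 ran from -0.55 to 0.64 for Acsbg1, -0.067 to 0.056 for Fads1, -0.16 to 0.26 for Elovl5 and -0.13 to 0.16 for Ppard. At Pd21 it ran from -1.09 to 0.077 for Fads2, -0.21 to 0.093 for Scd2, -0.17 to 0.005 for Elovl5, -0.76 to 0.37 for Elovl6, -0.20 to 0.23 for Ppara, -0.27 to 0.008 for Ppard and -0.11 to 0.40 for Pparg. The change of Acsbg1 from Pd3 to Pd7 in the F1-Control group ran from -0.49 to 0.15.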
